A study of Mus musculus with 3 samples.

Results

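The genes described are 9 regulators of vessel tone: Edn1, Ednra and Ednrb of the endothelin system, Nos2, Nos3 and Gch1 of nitric oxide synthesis, and Ptgs1, Ptgs2 and Ptges of prostaglandin synthesis. They were chosen by gene symbol, and all 9 were found among the 23361 genes of each table. The mRNA profiles come from livers of C57BL/6J mice aged 8-10 weeks and labelled male, fasted for 12 h and operated under chloral hydrate anesthesia, with 1 library for each of 3 groups. The sham group had a midline laparotomy without occlusion and was sampled after 90 min. For warm ischemia (WI), the vessels and bile duct of the left and median lobes, 70% of the liver, were clamped for 90 min before sampling. For ischemia with reperfusion (IR), the same 90 min of clamping preceded 120 min of restored flow. Each group had 6 mice, and the sources used here do not tell if the RNA of a single animal or a pool went into each library. No sham library matches the IR library in time, so reperfusion cannot be told apart from the longer time after surgery. With a single library per group no test between conditions was possible.

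Endothelin-1, the peptide made from Edn1, contracts vessels through the receptors encoded by Ednra and Ednrb, and in the liver it acts on stellate cells around the sinusoids. Nitric oxide relaxes vessels. It is made constitutively in endothelium by the enzyme of Nos3 and on inflammatory stimulation by the enzyme of Nos2, and both need tetrahydrobiopterin, whose synthesis begins with the enzyme of Gch1. Cyclooxygenases convert arachidonic acid to prostaglandin H2, the constitutive form being encoded by Ptgs1 and the inducible form by Ptgs2, and the microsomal synthase encoded by Ptges turns that product into prostaglandin E2. The question addressed is which of these genes differed in mRNA level after ischemia alone and after ischemia with reperfusion.

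The unit is FPKM, the number of fragments of a gene divided by transcript length and by the mapped fragments of the library, and each value was deposited with lower and upper 95% bounds from Cuffdiff's model, which do not measure the variation between mice. The median coefficient of variation that these bounds imply was 26.0% in each library. The tables hold no counts, but the bounds of genes with few fragments take the same values again and again, and their order gives the number of fragments behind a value. For 5 of the genes (Edn1, Ednra, Nos2, Ptgs2 and Ptges) these numbers were recovered in all 3 libraries, and exact Poisson 95% intervals of them, as well as the intervals of ratios made from them, cover counting error only. The FPKM that 1 fragment added to a gene was 0.898 times as large in the WI library as in the sham library and 1.25 times as large in the IR library as in the sham library (medians over genes). By this measure the WI library was the deepest and the IR library the shallowest, but the measure also depends on how Cuffdiff scaled each library. The authors reported a smaller share of uniquely aligned read pairs for the IR library than for the others.

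The libraries did not all match their label. Xist, the RNA that coats the silenced X of female cells, had an FPKM of 18.9 in the library labelled sham, 20.1 in the library labelled WI and 1.29 in the library labelled IR. The 4 Y-linked genes Ddx3y, Eif2s3y, Kdm5d and Uty were listed at 0 in the sham library and between 0 and 0.00849 in the WI library, but between 0.669 and 13.2 in the IR library. All mice were labelled male. In each difference between the IR library and the other two, a difference in sex of the mice therefore cannot be told apart from reperfusion. Among hepatocyte markers, Ttr and Apoa1 had an FPKM of 4239 to 8799 in all 3 libraries. Apob was at 379, 378 and 221 in the order sham, WI and IR. Alb is listed at 0 with a status that marks too many fragments to process.

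Of the 9 genes, Ptgs2 and Nos2, which encode the inducible enzymes, were higher in the IR library than in both other libraries with bounds that did not overlap, and Ptgs1 was lower there than in sham with bounds apart. The other 6 genes, Edn1, Ednra, Ednrb, Nos3, Gch1 and Ptges, had bounds that overlapped between all libraries, although the counting intervals of the Edn1 ratios between the IR library and each other library lay above 1. Changes are given as differences of log2(FPKM + 1), a scale that understates the change of genes with low FPKM, and a gene is called changed when FPKM + 1 differs at least 2-fold. Calls were made over the 10792 genes that reached an FPKM of 1 in any library. That filter was passed by Ednra, Ednrb, Nos3, Gch1, Ptgs1 and Ptgs2, the last of them through the IR library only, and not by Edn1, Nos2 and Ptges. Between WI and sham 0 of the 6 genes were called, beside 1.85% of all genes. Between IR and WI 1 of the 6 was called, Ptgs2, beside 7.21% of all genes. Between IR and sham 2 of the 6 were called, Ptgs2 as higher and Ptgs1 as lower, beside 7.5% of all genes. The bounds did not overlap for 0.676% of all genes between WI and sham, where they overlapped for all 9 genes. They did not overlap for 3.61% of all genes between IR and WI, and for Ptgs2 among the 6 that passed the filter. Between IR and sham the share was 3.82% of all genes, and Ptgs1 and Ptgs2 were the genes of the 6. Nos2, below the filter, also had bounds apart in both comparisons with the IR library.

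**Figure D1:**
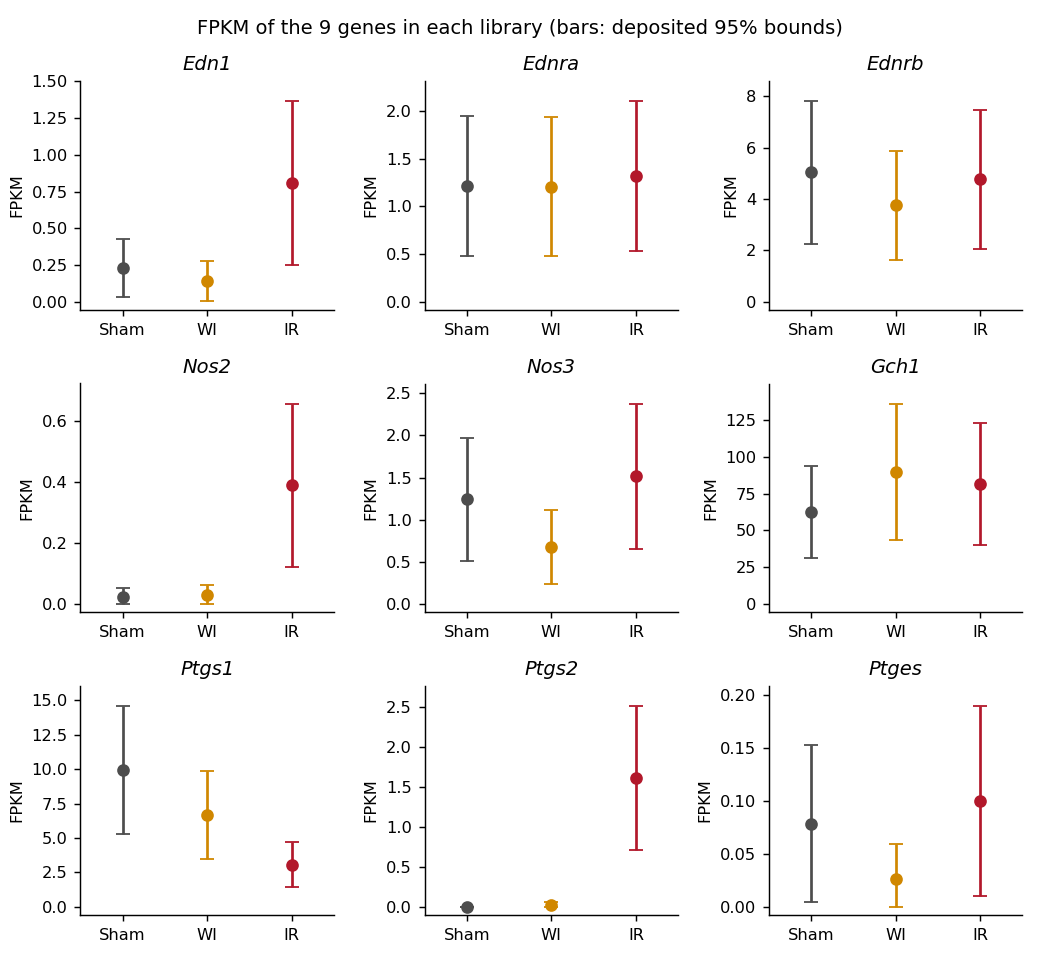
FPKM of each of the 9 genes (vertical axes, linear, each panel with its own scale) in the sham, WI and IR libraries, 1 library per group. Points are the deposited FPKM and bars the deposited 95% bounds. The IR point stands above both others for Edn1, Nos2 and Ptgs2, and the points of Ptgs1 go down from 9.94 to 6.69 and 3.06.

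Ptgs2 showed the largest ratio of the 9 genes. It lies on chromosome 1 of mm10 from 150100124 to 150108012. Its FPKM was 0 in the sham library, 0.0260 in the WI library (95% bounds 0 to 0.0587) and 1.61 in the IR library (0.710 to 2.51). These values rest on 0, 3 and 135 fragments. The floor used for a count of 0 was 3 fragments, an FPKM of 0.0290 in the sham library, while the exact interval of that count reaches 3.69 fragments. Between IR and WI the FPKM ratio was 61.9 (95% counting interval 20.7 to 304), a difference of 1.35 on the scale of log2(FPKM + 1). Against sham the IR value was at least 55.6-fold higher when set against that floor of the sham library, a figure that takes the IR value as it stands and leaves out its own counting interval of 113 to 160 fragments. The difference was 1.38 on the scale of log2(FPKM + 1). The sham and WI libraries were thus both at or near 0, and only the IR library held more than 3 fragments of this transcript.

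Ptgs1, on chromosome 2 from 36230426 to 36252269, went the other way. Its FPKM was 9.94 in the sham library (95% bounds 5.31 to 14.6), 6.69 in the WI library (3.48 to 9.89) and 3.06 in the IR library (1.44 to 4.69). The IR value was lower than the sham value by a ratio of 0.308, and its log2(FPKM + 1) fell by 1.43, with bounds that did not overlap. The steps from sham to WI, with a change of -0.51, and from WI to IR, with a change of -0.92, each had overlapping bounds. Ptgs2 therefore made up 0% of the summed FPKM of both cyclooxygenase genes in the sham library, 0.388% in the WI library and 34.5% in the IR library. In the IR library the bounds of Ptgs1 and Ptgs2 overlapped, and in the sham and WI libraries they did not.

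The sequences just before the start sites of both cyclooxygenase genes are shown because these were the called genes of the 9 and differed in opposite directions between the IR and sham libraries. They are the 250 bases before the start sites in RefSeq's promoters on build GRCm38.p6, which is mm10, 5′ to 3′ on the plus strand, for Ptgs1 at chr2:36230176-36230425 and for Ptgs2 at chr1:150099781-150100030, with CG dinucleotides in capitals.
Ptgs1: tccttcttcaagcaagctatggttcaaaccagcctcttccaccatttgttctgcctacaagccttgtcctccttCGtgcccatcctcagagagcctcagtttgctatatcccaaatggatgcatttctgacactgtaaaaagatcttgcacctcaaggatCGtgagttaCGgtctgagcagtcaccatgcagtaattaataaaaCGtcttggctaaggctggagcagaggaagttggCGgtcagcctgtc
Ptgs2: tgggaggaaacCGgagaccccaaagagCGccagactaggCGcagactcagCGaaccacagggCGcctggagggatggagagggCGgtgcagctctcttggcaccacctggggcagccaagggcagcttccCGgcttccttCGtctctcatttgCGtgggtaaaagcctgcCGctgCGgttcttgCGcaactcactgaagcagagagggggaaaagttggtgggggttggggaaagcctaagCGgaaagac
The window of Ptgs1 held 5 CG dinucleotides and 48% G and C, and that of Ptgs2 held 13 and 61.6%. Over the 32851 windows of the same length the medians were 6 CG dinucleotides and 52.4% G and C, with 5th to 95th percentiles of 0 to 31 and of 34.8% to 73.6%. Both windows thus lay within the usual range, that of Ptgs2 on the richer side. The gene model of the files starts right after the window for Ptgs1, where the RefSeq gene begins 13684 bases earlier, and 93 bases after the RefSeq start for Ptgs2. RefSeq windows were found for 7 of the 9 genes, all but Nos2 and Nos3. On either strand, the letters TATAAA were found in 1 of the 7 windows, Gch1, beside 12.4% of all windows. CCAAT was found in 3, those of Edn1, Ednrb and Gch1, beside 33.8%, and the NF-kB consensus in 2, those of Ednrb and Gch1, beside 7.25%. The window of Ednrb lies within the locus that the files give for the gene. The locus of Edn1 in the files begins before the RefSeq start and holds its CCAAT match. The matches of Edn1 and Ednrb are therefore not upstream of the loci in the files. TGANTCA, the AP-1 motif, was found in 0 of the 7 beside 6.75% of all windows, TGACGTCA, the cyclic AMP response element, in 0 beside 1.55%, and ACGTG, the core of hypoxia response elements, in 0 beside 16.6%. The last of these shares the letters ACGT with the cyclic AMP response element, and no match says only that the letters are absent from that window. For Ptgs2 the 93 bases between the RefSeq start and the start in the files were not searched. The counts therefore do not cover the stretch directly before the latter start.

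Ptges, the third gene of the pathway, lies on chromosome 2 from 30889471 to 30903297 and was barely detected. Its FPKM was 0.0783 in the sham library (95% bounds 0.00423 to 0.152), 0.0264 in the WI library (0 to 0.0596) and 0.0996 in the IR library (0.00989 to 0.189). They rest on 8, 3 and 8 fragments. Between IR and sham the FPKM ratio was 1.27, with a counting interval from 0.416 to 3.89, so a difference was not detectable at this depth. In the IR library its FPKM was the lowest of the 9 genes while that of Ptgs2 was the fourth highest.

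**Figure D2:**
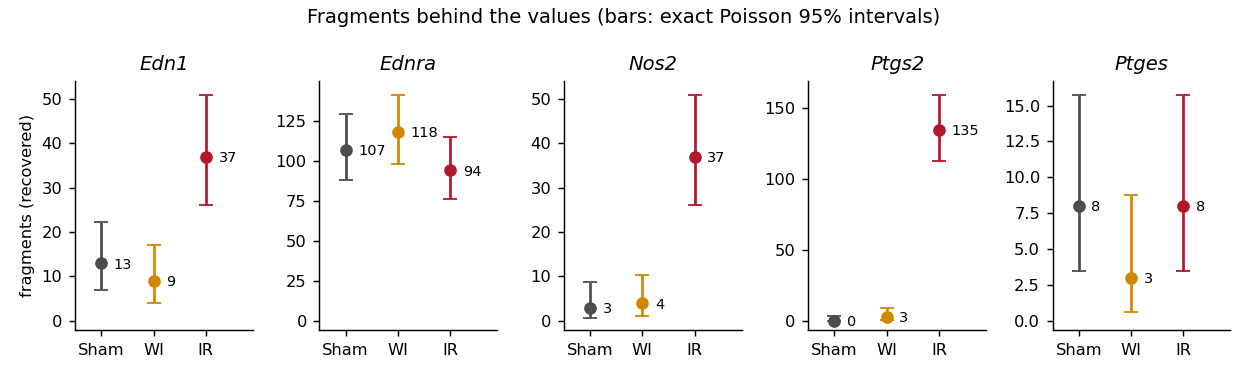
Number of fragments recovered from the deposited bounds (vertical axes, linear, each panel with its own scale) for the 5 genes where it was recovered in all of the sham, WI and IR libraries. Points are fragments, with the number beside them, and bars exact Poisson 95% intervals. Edn1 and Nos2 each reach 37 fragments and Ptgs2 reaches 135 in the IR library, while Ednra and Ptges have overlapping intervals in all 3.

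Among the nitric oxide genes, Nos2 was the one that stood apart in the IR library. It lies on chromosome 11 from 78920859 to 78960124. Its FPKM was 0.0249 in the sham library (95% bounds 0 to 0.0552), 0.0298 in the WI library (0 to 0.0642) and 0.390 in the IR library (0.122 to 0.658). The fragments behind these values numbered 3, 4 and 37. The IR value was 13.1 times the WI value, with a counting interval from 4.70 to 50.5, and 15.6 times the sham value, with an interval from 4.95 to 79.3. On the scale of log2(FPKM + 1) the same differences were 0.43 and 0.44, below the threshold for a call. The sham and WI values differed by a ratio of 1.20, with an interval from 0.202 to 8.16, so no difference between them was detectable.

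Nos3, the endothelial enzyme, lies on chromosome 5, in a locus that the files give as 24364819 to 24392143. Its FPKM was 1.25 in the sham library (95% bounds 0.519 to 1.97), 0.676 in the WI library (0.240 to 1.11) and 1.51 in the IR library (0.653 to 2.37). The WI library was lowest, and the bounds overlapped in every pair. Between IR and sham the change of 0.16 in log2(FPKM + 1) turned to -0.17 when each library was rescaled to a common sum of FPKM. That scaling moved the median change of all genes by -0.50. With each library rescaled by the median ratio over genes, the change of Nos3 was 0.12. The files give the same locus to Atg9b, an autophagy gene that overlaps the end of Nos3 in RefSeq, and whether reads were counted by strand is not given in the sources used here, so some reads of one could belong to the other. Atg9b had an FPKM of 0.0609, 0.0446 and 0.138 in the order sham, WI and IR. Nos2 accounted for 1.96% of the summed FPKM of both synthase genes in the sham library, 4.22% in the WI library and 20.5% in the IR library. Nos3 thus had the higher value in each library, with bounds that overlapped those of Nos2 only narrowly in the IR library.

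Gch1, on chromosome 14 from 47153895 to 47189402, was the most abundant of the 9 genes in each library. Its FPKM was 62.6 in the sham library (95% bounds 31.7 to 93.5), 89.7 in the WI library (43.6 to 136) and 81.4 in the IR library (39.9 to 123), at ranks 1003, 794 and 951 of the 23361 genes. Against sham, log2(FPKM + 1) changed by 0.51 in the WI library and by 0.37 in the IR library. The latter turned to -0.20 when each library was rescaled to a common sum of FPKM, and was 0.31 with the median ratio. From WI to IR the change was -0.14. The bounds of the 3 libraries overlapped, and those of Gch1 did not overlap with those of any other of the 9 genes.

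In the endothelin system the ligand gene differed more between libraries than its receptors. Edn1 lies on chromosome 13 from 42301270 to 42307989. Its FPKM was 0.229 in the sham library (95% bounds 0.0334 to 0.425), 0.143 in the WI library (0.00798 to 0.278) and 0.809 in the IR library (0.253 to 1.36), from 13, 9 and 37 fragments. The IR value was 5.66 times the WI value, with a counting interval from 2.68 to 13.3, and 3.53 times the sham value, with an interval from 1.83 to 7.23. Cuffdiff's wider bounds overlapped in both of these pairs, and the differences of 0.66 and 0.56 in log2(FPKM + 1) did not reach the threshold. The ratio of WI to sham was 0.623, with an interval from 0.235 to 1.57, so a difference after ischemia alone was not detectable.

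Ednra encodes the receptor of type A, which mediates contraction. Its locus is on chromosome 8 from 77663029 to 77724452. The FPKM of Ednra was 1.21 in the sham library (95% bounds 0.481 to 1.95), 1.21 in the WI library (0.477 to 1.94) and 1.32 in the IR library (0.536 to 2.10). With 107, 118 and 94 fragments, the ratio of IR to sham was 1.09, with a counting interval from 0.815 to 1.45, and that of WI to sham was 0.994, with an interval from 0.759 to 1.30. These intervals leave room for differences of up to about 1.45-fold. Ednrb encodes the receptor of type B, which on endothelium leads to nitric oxide release and clears the peptide. Its locus is on chromosome 14 from 103814615 to 103844476. The FPKM of Ednrb was 5.04 in the sham library (2.27 to 7.80), 3.75 in the WI library (1.65 to 5.86) and 4.76 in the IR library (2.04 to 7.47). Ednrb made up 80.6% of the summed FPKM of both receptor genes in the sham library, 75.7% in the WI library and 78.3% in the IR library. The changes of both receptors between IR and WI were small and positive, 0.07 for Ednra and 0.28 for Ednrb, and turned to -0.23 and -0.16 with a common sum of FPKM. With scaling by the median ratio they were 0.05 and 0.25.

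By FPKM, which accounts for transcript length, the order in the sham library was Gch1, Ptgs1, Ednrb, Nos3, Ednra, Edn1, Ptges, Nos2 and Ptgs2. Of the neighbours in that order, the bounds were apart between Gch1 and Ptgs1, between Ednrb and Nos3 and between Ednra and Edn1, and overlapped in the other 5 pairs. In the WI library the order was Gch1, Ptgs1, Ednrb, Ednra, Nos3, Edn1, Nos2, Ptges and Ptgs2, with bounds apart only between Gch1 and Ptgs1. In the IR library it was Gch1, Ednrb, Ptgs1, Ptgs2, Nos3, Ednra, Edn1, Nos2 and Ptges, with bounds apart only between Gch1 and Ednrb. Ptgs2 thus moved from the last place in the sham and WI libraries to the fourth in the IR library.

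The genes nearest in pattern to the called members were found by the Euclidean distance between the changes of log2(FPKM + 1) from sham to WI and from sham to IR, over 3 libraries, which is a description of these libraries. Nearest to Ptgs1 were Fam214a, at a distance of 0.0255, Cd97, an adhesion receptor of leukocytes, at 0.0640, and Cd180, a receptor of B cells and macrophages, at 0.0823. The FPKM of Cd180 was 2.39 in the sham library, 1.52 in the WI library and 0.264 in the IR library. Nearest to Ptgs2 were Tpm4, a tropomyosin, at 0.0293, Tymp, thymidine phosphorylase, at 0.0336, and Moxd1 at 0.0350. Moxd1 also had an FPKM of 0 in the sham library and 0.0109 in the WI library, and reached 1.66 in the IR library.

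Other genes of the same pathways were taken from lists of 51 genes that are not among the 9, of which 50 were in the tables and 33 passed the filter. Between WI and sham 0 of the 33 were called, and 17 were higher and 16 lower in the WI library. Between IR and WI 3 were called, Arg2 and Alox5ap as higher and Mme as lower in the IR library, and the call of Alox5ap was lost with a common sum of FPKM. Between IR and sham 3 were called, Arg2 as higher and Mme and Tbxas1 as lower. The call of Arg2 was lost in both comparisons when an FPKM of 1 was asked of all 3 libraries. The median change of the 33 was 0.02, -0.03 and -0.02 on the log2 scale in the order WI against sham, IR against WI and IR against sham, beside 0.02, 0.03 and 0.05 over all genes. The called shares of the lists, 3 of 33 in both comparisons with the IR library, stand beside 7.21% and 7.5% of all genes. The lists taken singly differed from each other between IR and sham. There the median was -0.43 in the prostaglandin list, with 5 genes higher and 8 lower of 13, and -0.13 in the endothelin list, with 1 higher and 2 lower. In the nitric oxide list it was 0.21, with 10 higher and 7 lower of 17, and turned to -0.37 with a common sum of FPKM, under which the median of all genes was -0.42.

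**Figure D3:**
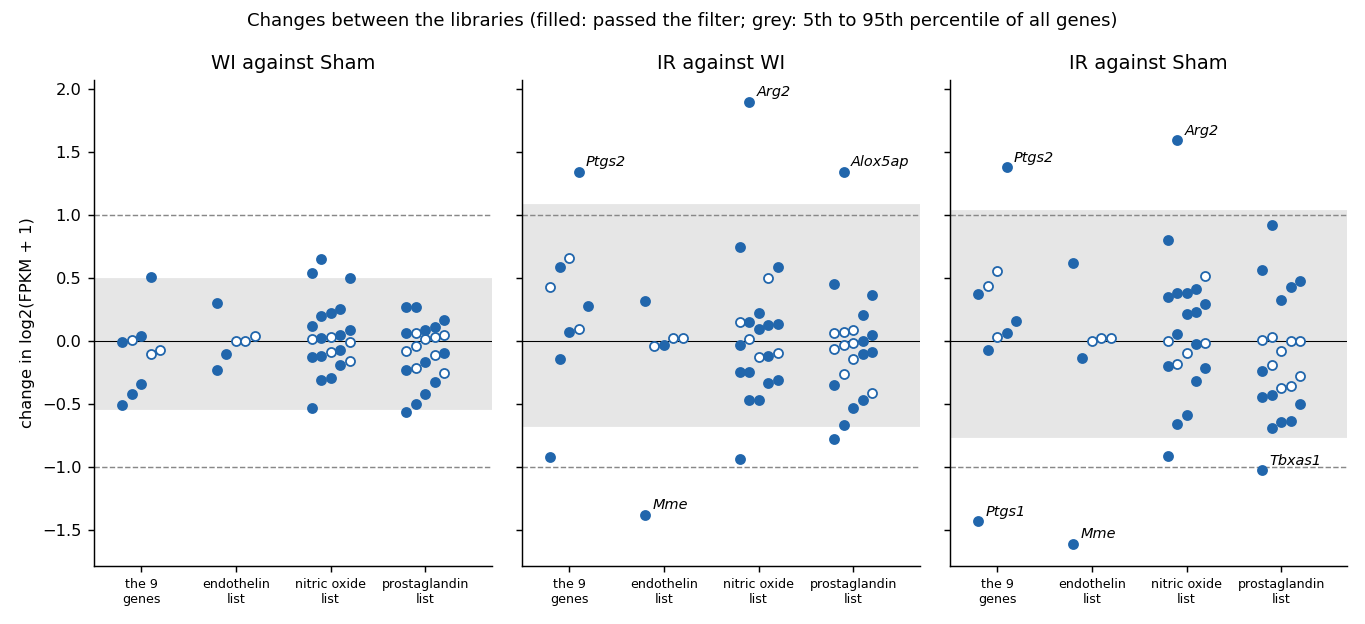
Change in log2(FPKM + 1) (vertical axis) between each pair of libraries, for the 9 genes and the genes of the endothelin, nitric oxide and prostaglandin lists (horizontal axis). Each point is 1 gene, open where it did not pass the filter, the grey band spans the 5th to 95th percentile of all genes that passed it, and dashed lines mark 2-fold. No point passes 2-fold between WI and sham, and the named genes do so in the comparisons with the IR library.

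In the endothelin list, Mme, the peptidase neprilysin, which degrades endothelin-1 among other peptides, had an FPKM of 14.9 in the sham library (95% bounds 7.97 to 21.8), 12.5 in the WI library (6.73 to 18.4) and 4.21 in the IR library (2.17 to 6.25). The bounds of the IR library lay below those of both other libraries. Ece1, the main endothelin-converting enzyme and the gene of highest FPKM in this list, had 37.4, 34.9 and 34.1 in the order sham, WI and IR, with bounds that overlapped. The ligand gene Edn2 was listed between 0 and 0.0269, and Edn3 between 0 and 0.0157, in the 3 libraries. Edn1 was therefore the only ligand gene of the system with an FPKM above 0.1 in any library.

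In the nitric oxide list, Arg2, an arginase that competes with the synthases for arginine, had an FPKM of 0.364 in the sham library, 0.103 in the WI library and 3.12 in the IR library. Its lower bound was 0 in each library and the bounds overlapped, so the model left this difference uncertain. Arg1, the abundant arginase of the urea cycle, had the highest FPKM of the list, with 981 (95% bounds 270 to 1692), 802 (249 to 1355) and 1206 (292 to 2121) in the same order. The arginine transporter gene Slc7a1, below the filter, was at 0.178, 0.193 and 0.687, from 32, 39 and 100 fragments, and its bounds overlapped. Its IR value was 3.87 times the sham value, with a counting interval from 2.57 to 5.95. Against the WI value the ratio was 3.56, with an interval from 2.44 to 5.29. The subunits of soluble guanylate cyclase, the receptor of nitric oxide, had their lowest values in the IR library. Gucy1a3 was at 1.62, 1.30 and 0.659 and Gucy1b3 at 2.32, 2.38 and 0.766, differences that did not reach 2-fold in FPKM + 1.

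In the prostaglandin list, Alox5ap, which presents arachidonic acid to the lipoxygenase of leukotriene synthesis, had an FPKM of 6.82 in the sham library (95% bounds 2.80 to 10.8), 4.83 in the WI library (1.82 to 7.83) and 13.8 in the IR library (6.59 to 21.02). Tbxas1, thromboxane synthase, had 3.51 (1.58 to 5.44), 2.20 (0.891 to 3.50) and 1.21 (0.413 to 2.01). The bounds of both genes overlapped between all libraries. Ptgis, the prostacyclin synthase, was at 2.86, 1.62 and 1.47. Hpgd, which inactivates prostaglandins and had the highest FPKM of the list, was at 98.8 (50.1 to 148), 105 (52.9 to 157) and 60.9 (32.0 to 89.8). Like Ptgs1, Tbxas1 and Ptgis had their highest value in the sham library and their lowest in the IR library.

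Markers of the cells that could carry these transcripts differed between the libraries too, and in bulk tissue fewer cells of a type and less RNA per cell cannot be told apart. The 7 Kupffer cell and macrophage markers found in the tables had a summed FPKM of 479 in the sham library, 242 in the WI library and 147 in the IR library, with 0 of them at 0. The ratio of IR to sham was 0.306 for their sum and 0.308 for Ptgs1. The single steps were less alike, with 0.506 for the sum and 0.672 for Ptgs1 from sham to WI. From WI to IR the ratios were 0.605 and 0.458. Of the 7 markers 6 were lower in the IR library than in sham, among them Clec4f with a ratio of 0.285 and Vsig4 with 0.182, and Marco was higher with 1.21. The 8 neutrophil markers found summed to 25.8, 19.6 and 471 in the order sham, WI and IR, 0 of them at 0, and all 8 were higher in the IR library than in the WI library. Their sum had a ratio of 24.0 between IR and WI, beside 61.9 for Ptgs2 and 13.1 for Nos2. Most of the sum in the IR library came from S100a8 at 212 and S100a9 at 204. The ratios of single markers ran from 5.30 for Ltf, which did not pass the filter, to 150 for Mmp8. The 5 platelet markers, a cell type that carries the enzyme of Ptgs1, summed to 2.92, 2.57 and 5.46, and 5 of the 5 were higher in the IR library than in the sham library. Bounds were apart for 0 of the 5, and Itga2b, Gp1bb and Gp9 did not pass the filter. The counting interval of the ratio of IR to sham lay above 1 for Pf4, from 1.37 to 6.05. Those of Ppbp, Itga2b and Gp9 included 1. The part of these cells in the results was not tested.

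The endothelial and stellate cell markers bear on Edn1, Nos3 and the receptors. The 9 sinusoidal endothelial markers had a summed FPKM of 188 in the sham library, 141 in the WI library and 148 in the IR library, and 9 of the 9 were lower in the WI library than in sham. The ratio of WI to sham was 0.750 for their sum, 0.543 for Nos3 and 0.745 for Ednrb. Between IR and WI the sum had a ratio of 1.05, beside 5.66 for Edn1 and 2.24 for Nos3, and 3 of the 9 markers were higher, Lyve1, Cdh5 and Pecam1. Lyve1 was at 11.2, 2.73 and 33.4 in the order sham, WI and IR, and without it the ratio of the sum was 0.828. Cdh5, the cadherin of endothelial junctions, was at 12.5, 8.15 and 16.9, a ratio of 2.07 between IR and WI. Like Nos3 and Lyve1, Cdh5 was lowest in the WI library and highest in the IR library by the deposited FPKM, and its bounds overlapped in every pair. Between IR and sham 7 of the 9 markers were lower and 2 higher. The ratio of the sum was 0.787 there, and 0.648 without Lyve1. For Nos3 the higher value of IR than of sham was lost with a common sum of FPKM. The 7 stellate cell markers summed to 145, 103 and 105, most of it from Dcn at 130, 91.2 and 95.5. Of these 7 markers 3 were higher and 4 lower in the IR library than in sham. Bounds were apart in that comparison for Lrat alone, at 4.96, 4.12 and 1.46 in the order sham, WI and IR. The 4 smooth muscle markers summed to 6.78, 5.80 and 8.12, while Ednra stayed between 1.21 and 1.32. No marker of these 3 lists was at 0 in any library. The part of these cells was likewise not tested.

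**Figure D4:**
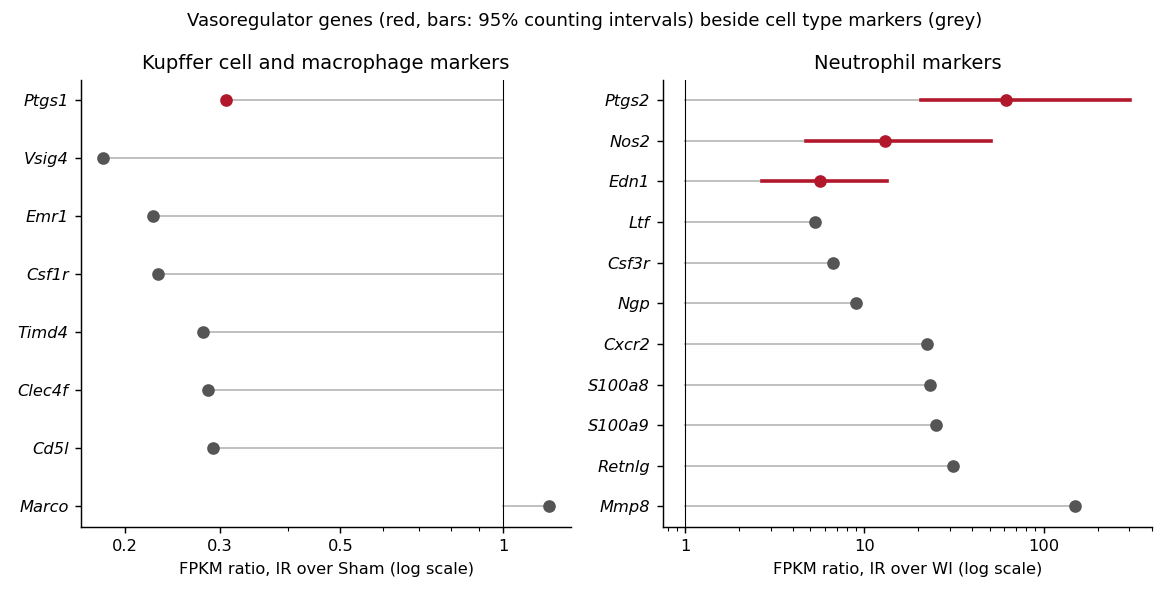
FPKM ratios (horizontal axes, log scale) between the IR and sham libraries for Ptgs1 and the Kupffer cell and macrophage markers (left), and between the IR and WI libraries for Ptgs2, Nos2, Edn1 and the neutrophil markers (right). Points are 1 ratio each, red for the vasoregulator genes with 95% counting intervals where fragments were recovered, grey for markers. Ptgs1 at 0.308 lies beside 6 markers below 1, and Ptgs2, Nos2 and Edn1 lie above 1 with all 8 neutrophil markers.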

How the data were processed

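The mRNA libraries of the sham, WI and IR groups were analysed, 1 each. The authors mapped reads to mm10 with TopHat2 2.0.9 and ran Cuffdiff of Cufflinks 2.0.2, both with default settings. The deposited tables hold FPKM per gene with its 95% bounds and a status. A strand setting is not given in the sources used here. The bounds are the FPKM plus and minus 2 model SDs. The square of FPKM over that SD fell on discrete steps, numbered as fragments. 51.3% to 52.6% of the genes in the range of the steps lay on one within a tolerance of 0.0015, and a gene's numbers were used only where the worth of 1 fragment in each pair of libraries lay within the 5th to 95th percentile of all genes. For Ptgs2 in the sham library, listed at 0, the worth of a fragment was taken from the WI library through the median over genes. The steps and fold calls were run on simulated data made to fall on steps, which cannot show that the numbers recovered here are right. No counts were available to check them. Starts in the files were 1 lower than in RefSeq for 7550 of 10490 genes with equal ends, so 1 was added. The pseudocount was 1. Intervals cover counting error only. The genes named were the 9 members, list genes called 2-fold, the highest gene of each list and the 3 nearest patterns per called member, and other list or marker genes were chosen after their values were seen. Members and lists were chosen with earlier results of these data known. Alternatives were other pseudocounts, filters, scalings, fold thresholds and non-overlapping bounds. Promoter windows came from RefSeq (GRCm38.p6), and 1 of the 51 list genes, Ptgdr2, is not analysed here. Values were computed with pandas 2.3.3, matplotlib 3.10.9, numpy 2.4.6 and scipy 1.17.1 under Python 3.11.15.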

Additional observations from a re-analysis of the deposited data

How the results depend on the processing

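No paired analysis was possible because each group has 1 library, and for the same reason no replicate could be left out. Counts of called genes out of the 9 are given first and those of the pathway lists second in each pair of groups. Shares of all genes are given above for the reported calls and for bounds with the filter only. The counts under the other settings have no such share beside them, so they show how the calls depend on the setting and no more. Between WI and sham the reported counts of 0 and 0 became 1 (Ptgs2, on 3 fragments) with a pseudocount of 0.01, and for the lists 1 with a pseudocount of 0.1 or 0.01 and 1 at 1.5-fold. Between IR and WI the reported 1 and 3 became 3 with a pseudocount of 0.1 or 0.01 (Nos3 as higher and Ptgs1 as lower were added), 0 with FPKM of at least 1 in all 3 libraries, which leaves Ptgs2 out, 2 and 6 with a common sum of FPKM, where Alox5ap was no longer called, 2 and 8 at 1.5-fold and 0 and 0 at 4-fold. Non-overlapping bounds gave 1 for the lists, with or without the filter, and 2 of the 9 genes without it, a setting chosen after seeing the data. Between IR and sham the reported 2 and 3 became 1 for the 9 genes with the filter in all libraries, 0 and 0 at 4-fold, and for the lists 6 and 7 with pseudocounts of 0.1 and 0.01, 8 with a common sum, 12 at 1.5-fold and 1 with non-overlapping bounds, with or without the filter. Of 108 changes of single members under 4 other pseudocounts and scalings, 22 moved by more than their model interval and 6 took the other sign, all 6 of them under the common sum and for genes that were not called. That scaling moved the median change of all genes by -0.46 between IR and WI and by -0.50 between IR and sham. Depth limited Ptges, Nos2 and Ptgs2 most, with 0 to 8 fragments in the sham and WI libraries.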

Other observations

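Of the 8 prostanoid receptor genes in the tables, Ptger1 alone passed the filter, and values were lowest in the IR library for Ptger1, Ptger2, Ptgir, Tbxa2r and Ptgfr. Ptger1, a receptor of prostaglandin E2, had an FPKM of 2.44 in the sham library, 2.07 in the WI library and 1.21 in the IR library. Ptger2, another receptor of prostaglandin E2, was at 0.593, 0.476 and 0.230 in the same order, from 51, 45 and 16 fragments, with 95% bounds that overlapped. Ptgir, the prostacyclin receptor, was at 0.0841, 0.132 and 0.0267, from 8, 14 and 2 fragments. The cytosolic phospholipase gene Pla2g4a, whose enzyme releases arachidonic acid, was at 1.24, 1.10 and 0.647, from 98, 93 and 40 fragments. Ptgds, a prostaglandin D synthase, was at 3.63, 2.70 and 2.44, from 76, 64 and 41 fragments. The bounds of Pla2g4a and Ptgds overlapped too. Counting intervals of the ratio of IR to sham lay below 1 for Pla2g4a (0.351 to 0.760), Ptgds (0.449 to 0.997) and Ptger2 (0.207 to 0.693). That of Ptgir, from 0.0328 to 1.59, included 1. Other genes of the same list were highest in the IR library. Ptgr1, whose enzyme inactivates prostaglandins and leukotrienes, was at 1.42, 1.61 and 2.57, from 79, 99 and 113 fragments, with a ratio of IR to sham of 1.81 and a counting interval from 1.35 to 2.45. Ptges3 was at 39.4, 47.6 and 55.1, Ptges2 at 9.98, 10.46 and 13.8, and the prostaglandin transporter gene Slco2a1 at 14.2, 17.4 and 18.0. Of the 13 genes of the list that passed the filter, 5 were higher and 8 lower in the IR library than in sham, and 2 were higher and 11 lower with a common sum of FPKM. The genes named here were chosen after their values were seen, and their 95% bounds overlapped between IR and sham.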
